A study of Mus musculus with 12 samples.

Results

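The genes described here are 9 factors that write, keep, protect or remove DNA methylation: *Dnmt1*, *Dnmt3a*, *Dnmt3b*, *Dnmt3l*, *Uhrf1*, *Dppa3*, *Tet1*, *Tet2* and *Tet3*. They were taken by gene symbol from a table of 24259 genes, and all 9 symbols were found. The study asked how the loss of LSM14B, an RNA-binding protein of oocytes, alters which maternal mRNAs lie on polysomes. RNA was sequenced from germinal vesicle (GV) oocytes, fully grown oocytes still arrested in meiotic prophase, of wild-type (WT) mice and of mice homozygous for *Lsm14b* tm1a, a knockout-first reporter allele (KO), on the C57BL/6J background. The allele was germline, so every cell of the KO mice carried it. All mice were 3 weeks old and had received 5 IU of PMSG, the gonadotropin that drives follicle growth, 46 h before collection. All oocytes were collected in cycloheximide, which freezes ribosomes on mRNA. About 1500 oocytes were pooled for a lysate, each lysate was spread over a sucrose gradient, and fractions 1 to 10 were combined as the RNP pool (free mRNPs, ribosomal subunits and light complexes) and fractions 11 to 28 as the polysome pool. The 4 groups were WT RNP, WT polysome, KO RNP and KO polysome, with 3 libraries each and 12 in all. The labels do not say that the replicates came from separate mice, so p-values measure only the spread between these libraries, which may be technical.

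DNA methylation in mammals is written de novo by DNMT3A and DNMT3B, and in the growing oocyte the catalytically inactive partner DNMT3L is required with DNMT3A to set the maternal imprints. After replication, UHRF1 binds hemimethylated CpG and recruits the maintenance enzyme DNMT1, whereas DPPA3 (STELLA), a maternal protein, binds UHRF1 and keeps it out of the oocyte nucleus and, after fertilization, shields the maternal genome from TET3. The TET enzymes oxidize 5-methylcytosine, and TET3 is the member stored in the oocyte that acts on the paternal genome of the zygote.

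Because GV oocytes are transcriptionally silent and regulate stored mRNAs through their 3′ ends, the annotated 3′ ends of the 9 genes were searched for the cytoplasmic polyadenylation element, the CPEB binding site TTTTAT or TTTTAAT, in the last 150 bases. The search used the sense strand of 1 coding transcript per gene in GENCODE M21 (GRCm38), and the 2 forms of the motif do not overlap one another at a site. The element was found in 5 of 9 genes, *Dnmt1*, *Dnmt3a*, *Tet1*, *Tet2* and *Tet3*, against 25.7% of 9452 coding transcripts with a 3′UTR of at least 150 bases. It was not found in the windows of *Dnmt3b*, *Dnmt3l*, *Uhrf1* or *Dppa3*. The windows of 30 bases around the element nearest to the annotated end are shown for the 3 well-expressed genes that carry it, with that element alone in capitals. The *Tet3* window also holds a TTTTAAT, left in small letters, before it. The last base of the element was followed by 42 bases to the annotated end in *Dnmt1*, by 49 in *Dnmt3a* and by 20 in *Tet3*, where it was one of 3.
Dnmt1: gacttgatgtagTTTTATatgttgtaatat
Dnmt3a: tgtttatatataTTTTATtttcgctataaa
Tet3: tgttttaataaaTTTTATatttattttttg

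The promoters of 3 genes that changed in both pools of KO oocytes (2 higher and 1 lower) are shown as RefSeq gives them on GRCm38.p6, from 250 bases before to 50 bases after an annotated start. E-boxes, the letters CANNTG read on both strands because the motif is its own complement, are in capitals. An E-box is the site of FIGLA and other helix-loop-helix factors of the oocyte. The first window of *Dnmt3l* (chr10:78042037-78042336, plus strand) held 4 E-boxes, and 6.49% of 32851 annotated promoters held at least 4. Its other annotated windows, not shown, held 1 and 0. The first window of *Uhrf1* (chr17:56303087-56303386, plus strand) and that of *Tet3* (chr6:83441629-83441928, minus strand) held 2 each, and 39.6% of promoters held at least 2 and 72.3% at least 1. A match describes the letters only.
Dnmt3l: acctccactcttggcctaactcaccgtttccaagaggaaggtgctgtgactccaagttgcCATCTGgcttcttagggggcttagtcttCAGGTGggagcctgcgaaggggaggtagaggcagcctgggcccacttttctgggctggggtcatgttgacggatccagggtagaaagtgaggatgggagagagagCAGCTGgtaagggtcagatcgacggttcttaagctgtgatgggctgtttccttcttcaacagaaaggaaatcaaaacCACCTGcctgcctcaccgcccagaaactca
Uhrf1: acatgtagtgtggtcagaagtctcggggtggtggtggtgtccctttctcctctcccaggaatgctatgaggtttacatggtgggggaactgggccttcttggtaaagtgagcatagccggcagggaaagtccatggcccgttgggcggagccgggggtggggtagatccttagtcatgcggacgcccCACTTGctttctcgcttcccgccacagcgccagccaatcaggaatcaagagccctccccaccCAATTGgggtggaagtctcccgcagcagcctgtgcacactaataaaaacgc
Tet3: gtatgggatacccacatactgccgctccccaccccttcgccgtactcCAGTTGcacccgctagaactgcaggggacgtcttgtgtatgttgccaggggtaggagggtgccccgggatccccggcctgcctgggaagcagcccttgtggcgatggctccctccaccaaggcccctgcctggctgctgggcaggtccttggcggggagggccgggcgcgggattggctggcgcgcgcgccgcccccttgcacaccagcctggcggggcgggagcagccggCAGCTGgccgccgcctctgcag

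The values are FPKM, fragments per kilobase of transcript scaled to the mapped fragments of the library, as deposited. FPKM is a relative measure, however the libraries were scaled to one another. A level says how a transcript stood among the other RNAs of the same pool. Neither RNA per oocyte nor the share of a transcript's molecules in a pool can be read from it. *Lsm14b* itself ranged from 27.4 to 34.6 FPKM in the WT RNP libraries and from 11.3 to 15.3 FPKM in the WT polysome libraries, and was at 0.893 FPKM or less in all 6 KO libraries. If each library was scaled to its own mapped fragments, the steps between low FPKM values corresponded to depths of about 4.89 to 7.91 (in units of 1e6 fragments) per library. In replicate 2 of the KO polysomes the 10 highest genes held 34.7% of summed FPKM, against 11.6% to 14.7% elsewhere, because *Mir300* was listed at 170809 FPKM. The 12 oocyte markers were detected in every group and were themselves higher in KO oocytes, their summed FPKM running from 21209 to 22934 in polysomes of WT and from 25254 to 27393 in those of KO, and in the RNP pool from 4752 to 4881 in WT and from 6132 to 6653 in KO. The test called 5 of these 12 markers higher in KO polysomes and 7 in KO RNP, with median log2 changes of 0.60 and 0.52. The 16 granulosa and cumulus markers summed to between 28.0 and 80.4 FPKM in polysomes of WT and between 81.5 and 103 FPKM in those of KO, and in the RNP pool to between 31.3 and 37.0 FPKM in WT and between 43.2 and 66.0 FPKM in KO. Of these 16 markers, 7 were tested in polysomes and 4 in RNP. *Inha* passed the test as higher in both KO pools and *Fshr* and *Inhba* in KO polysomes. In polysomes *Fshr* and *Inhba*, and in RNP *Inha*, were below 1 FPKM in every WT library. They passed the filter only through the KO libraries, so they could be tested only as higher in KO, and these calls are no separate evidence of a rise. In polysomes *Nr5a2* and *Hsd17b1* were higher in KO but not called. *Cyp19a1* was lower there (log2 -0.54, adjusted p = 0.495, limma), as was *Kitl* (log2 -0.11, adjusted p = 0.919, limma). In RNP *Cyp19a1* was higher but not called (log2 0.38, adjusted p = 0.269, limma). *Krt18* was listed at 0 in all 12 libraries, as were *Foxl2* and *Amhr2* in both polysome groups. The polysome call of *Inha* was lost without any 1 KO polysome library (adjusted p up to 0.107) and that of *Fshr* without WT polysome replicate 1 or 2 (adjusted p up to 0.0505). Without any 1 KO library of the pool, *Fshr* and *Inhba* in polysomes and *Inha* in RNP fell under the filter and were not tested. The part of these markers in the results below was not tested. In these bulk RNAs, fewer cells of a type and less RNA per cell cannot be told apart.

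In the WT RNP pool the group means ran from 1.13 FPKM for *Tet2* to 936 FPKM for *Dppa3* (plot of FPKM by library). *Dppa3* was the highest of the 9 in every group, above 99.7% of the genes above 0 in the WT RNP pool, and *Uhrf1* was second in every group. In WT RNP, *Tet3* followed at 125 ± 16.7 FPKM (SD, n = 3), then *Dnmt3l* at 79.0 ± 9.69 FPKM and *Dnmt1* at 67.6 ± 5.68 FPKM, whose libraries overlapped, then *Dnmt3a* at 17.0 ± 5.79 FPKM. *Dnmt3b*, *Tet1* and *Tet2* stood last, and neighbours among these 3 overlapped in the WT RNP group. In KO RNP the order of *Tet3* and *Dnmt3l* was exchanged, with every *Dnmt3l* library at 96.3 FPKM or above and every *Tet3* library at 74.8 FPKM or below. In KO polysomes *Tet3*, *Dnmt1* and *Dnmt3l* overlapped, whereas in WT polysomes the lowest *Tet3* library, at 231 FPKM, was above the highest *Dnmt1* library, at 119 FPKM.

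**Figure D1:**
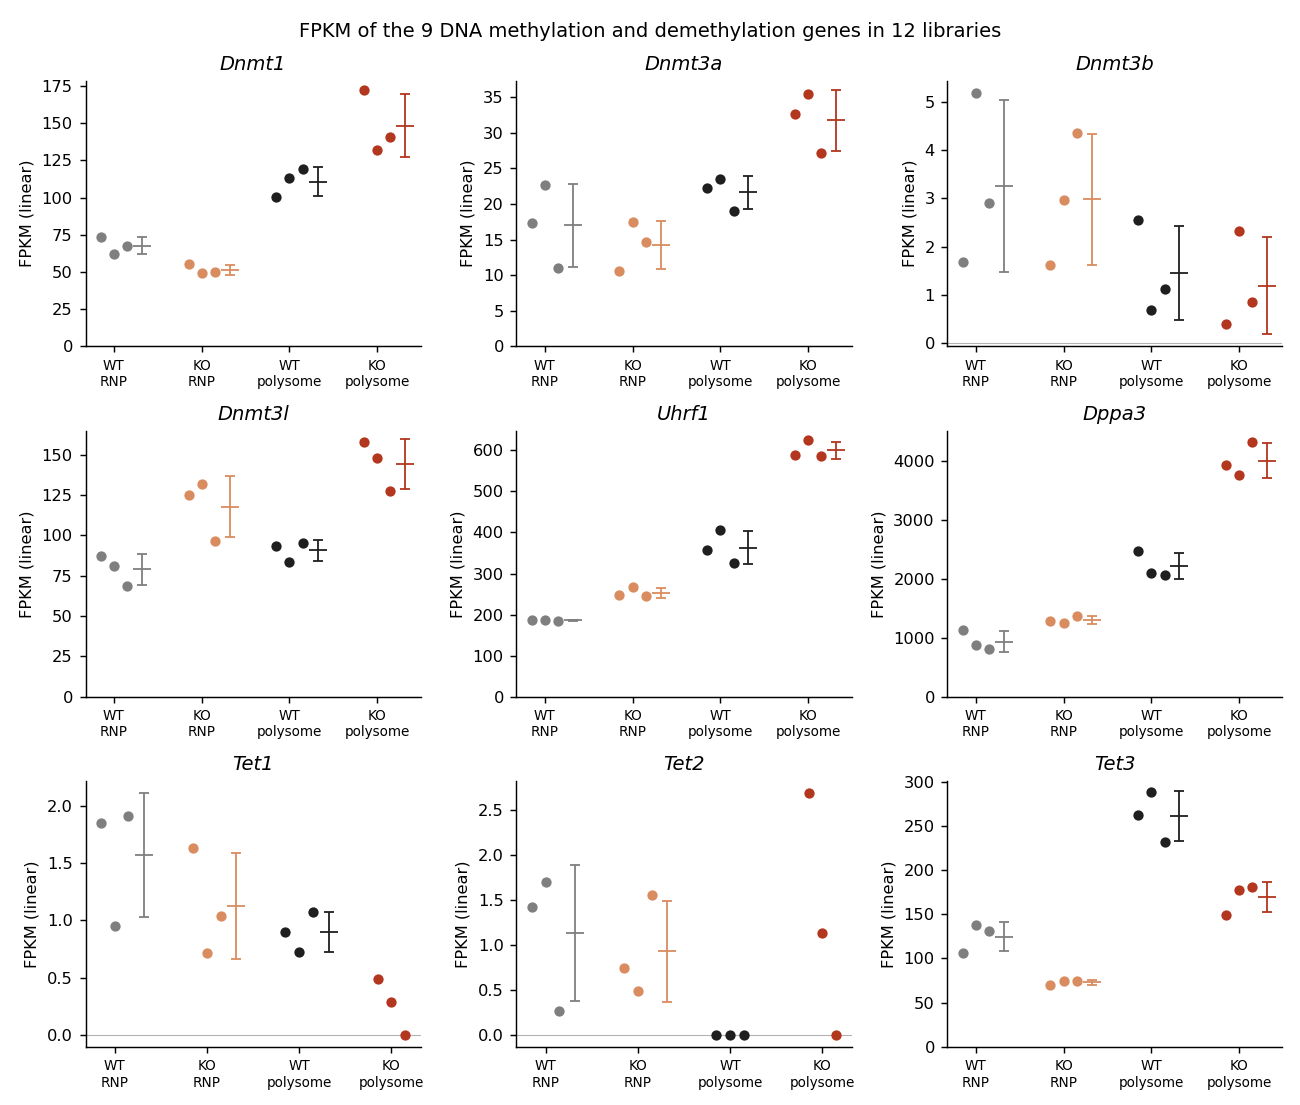
FPKM on linear axes for each of the 9 genes, 1 point per library in replicate order, with the mean and SD of 3 libraries beside the points (not drawn for a group with a library listed at 0). *Dnmt3l*, *Uhrf1* and *Dppa3* were higher and *Tet3* lower in every KO library than in every WT library of the same pool, and *Dnmt3b*, *Tet1* and *Tet2* stayed under 6 FPKM.

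In KO oocytes the mRNAs of the maintenance partner *Uhrf1* and its antagonist *Dppa3* rose in both pools, the de novo cofactor *Dnmt3l* rose in both pools, and *Tet3* fell in both. In polysomes, 4 of the 7 genes that passed the filter on low values were called (limma, Benjamini-Hochberg adjusted p below 0.05), against 10.4% of the 9536 genes tested. In the RNP pool 4 of 9 were called, the same 4 in the same directions, against 20.7% of 9931 genes. The 3 libraries of KO did not overlap those of WT for 6 of the 7 tested genes in polysomes, against 31.7% of all genes tested, and for 5 of 9 in RNP, against 39.2%. The median log2 change over the tested members was 0.53 in polysomes and -0.11 in RNP, beside 0.10 and 0.05 over all genes tested. A rise in KO was also seen outside the 9 genes. Of the 12 oocyte markers, 5 were called higher in polysomes and 7 in RNP, with 0 called lower in either pool. Their median log2 changes were 0.60 and 0.52. All fold changes below are ratios of mean FPKM, and log2 changes are on the log2(FPKM + 1) scale, which understates the change of low genes.

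*Uhrf1* encodes the reader of hemimethylated CpG. It was at 187, 186 and 185 FPKM in WT RNP and at 249, 266 and 244 FPKM in KO RNP. In WT polysomes it was at 357, 405 and 325 FPKM and in KO polysomes at 590, 625 and 585 FPKM. Every KO library was above every WT library in both pools. The change was 1.65-fold in polysomes (log2 0.73, SE 0.11, adjusted p = 0.00768, limma) and 1.36-fold in RNP (log2 0.44, SE 0.09, adjusted p = 0.00700, limma). Leaving out any 1 library left both calls in place, with adjusted p up to 0.0384 in polysomes and up to 0.0390 in RNP. Without the trend of the spread on expression level neither was called (adjusted p = 0.104 and 0.103, limma).

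*Dppa3* encodes the STELLA protein that keeps UHRF1 and TET3 from the maternal genome. WT RNP libraries held 1136, 869 and 802 FPKM and KO RNP libraries 1276, 1256 and 1375 FPKM. WT polysome libraries held 2468, 2099 and 2068 FPKM and KO polysome libraries 3935, 3762 and 4329 FPKM. The groups did not overlap in either pool. The rise was 1.81-fold in polysomes (log2 0.86, SE 0.10, adjusted p = 0.00277, limma) and 1.39-fold in RNP (log2 0.49, SE 0.12, adjusted p = 0.0169, limma). The RNP call was lost without KO RNP replicate 3 (adjusted p = 0.0573) and, in separate fits, under quantile normalization or with no filter on low values. Both calls were lost without the intensity trend. Quantile normalization lowered the polysome change to 0.48 on the log2 scale, which remained called. The highest adjusted p over all alternatives was 0.0744 in polysomes and 0.140 in RNP.

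*Dnmt1* encodes the maintenance methyltransferase, which in oocytes is made largely as a shorter form from an oocyte promoter; the table has 1 row per gene and does not separate the forms. In WT RNP it was at 73.2, 61.9 and 67.7 FPKM and in KO RNP at 55.5, 49.0 and 50.2 FPKM. Its WT polysome libraries held 100.2, 113 and 119 FPKM and its KO polysome libraries 172, 132 and 141 FPKM. All 3 KO libraries were below WT in the RNP pool and above WT in polysomes. Neither difference passed the adjusted threshold: the log2 change was -0.38 in RNP (SE 0.14, adjusted p = 0.0761, limma) and 0.41 in polysomes (SE 0.16, adjusted p = 0.135, limma).

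*Dnmt3l* was the only de novo factor called. It stood at 87.4, 81.1 and 68.4 FPKM in WT RNP and at 125, 132 and 96.3 FPKM in KO RNP. In WT polysomes it stood at 93.4, 83.3 and 95.6 FPKM and in KO polysomes at 158, 148 and 128 FPKM. The lowest KO library lay above the highest WT library in each pool. The rise was 1.59-fold in polysomes (log2 0.66, SE 0.15, adjusted p = 0.0274, limma) and 1.49-fold in RNP (log2 0.57, SE 0.16, adjusted p = 0.0308, limma). These calls were close to the threshold: the polysome call was lost without WT polysome replicate 2 or any 1 of the 3 KO polysome libraries (adjusted p up to 0.110), and the RNP call without WT RNP replicate 3, KO RNP replicate 1 or KO RNP replicate 2 (adjusted p up to 0.121). Both were also lost without the intensity trend, the RNP call with no filter and the polysome call with a replicate block (adjusted p = 0.0648). *Dnmt3l* shares 67 exonic bases with *Aire* on the opposite strand, which was at 1.30 to 3.68 FPKM in these libraries.

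*Dnmt3a*, the enzyme that DNMT3L activates, did not pass the test in either pool. Its libraries held 17.3, 22.6 and 11.1 FPKM in WT RNP and 10.6, 17.4 and 14.7 FPKM in KO RNP, which overlapped. WT polysomes held 22.3, 23.4 and 19.1 FPKM and KO polysomes 32.6, 35.5 and 27.1 FPKM, which did not. The polysome difference was 1.47-fold, with a log2 change of 0.53 (SE 0.23, 95% interval 0.00 to 1.06, adjusted p = 0.190, limma). *Dnmt3a* shares 133 exonic bases with the antisense gene *Dnmt3aos*, listed at 17.5 FPKM in WT RNP replicate 3, where *Dnmt3a* was lowest, and at 3.14 FPKM or less elsewhere. Whether the counting used strand is not given in the sources used here.

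*Dnmt3b*, the de novo enzyme that is not needed for the oocyte methylome, was at 1.67, 5.17 and 2.90 FPKM in WT RNP and at 1.61, 2.97 and 4.34 FPKM in KO RNP. In polysomes it was at 2.54, 0.693 and 1.13 FPKM in WT and at 0.400, 2.33 and 0.850 FPKM in KO. The groups overlapped in both pools, and the 95% interval of the log2 change ran from -1.37 to 0.99 in polysomes and from -1.06 to 0.92 in RNP. Changes within these intervals, in either direction, were not excluded.

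*Tet3* moved against the other 3 genes called. It was at 106, 138 and 131 FPKM in WT RNP and at 69.8, 74.1 and 74.8 FPKM in KO RNP. In polysomes it was at 263, 288 and 231 FPKM in WT and at 149, 178 and 181 FPKM in KO. Every KO library was below every WT library of its pool. KO RNP held 0.584 times the WT level (log2 -0.76, SE 0.13, adjusted p = 0.00411, limma) and KO polysomes 0.649 times (log2 -0.62, SE 0.14, adjusted p = 0.0279, limma). The RNP call held under each of its 14 alternatives, with adjusted p up to 0.0376. The polysome call was lost without WT polysome replicate 1, WT polysome replicate 2 or any 1 KO polysome library (adjusted p up to 0.0822). It was also lost with no filter, with a replicate block (adjusted p = 0.0580) and without the intensity trend, where it was highest (adjusted p = 0.161).

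*Tet1* and *Tet2*, the TET enzymes of other cell types, were near the detection limit, and *Tet3* made up 96.6% or more of the summed *Tet* FPKM in each library. *Tet1* was at 1.86, 0.949 and 1.91 FPKM in WT RNP and at 1.63, 0.712 and 1.04 FPKM in KO RNP. In polysomes *Tet1* was at 0.901, 0.726 and 1.07 FPKM in WT and at 0.489, 0.286 and 0 FPKM in KO, a pair of groups that did not overlap but fell under the filter on low values. *Tet2* was listed at 0 in all 3 WT polysome libraries and at 2.69, 1.13 and 0 FPKM in KO polysomes, and was not tested there either. In RNP, *Tet2* was at 1.43, 1.70 and 0.269 FPKM in WT and at 0.745, 0.483 and 1.56 FPKM in KO, and neither gene was called (adjusted p = 0.668 for *Tet1* and 0.891 for *Tet2*, limma). With the annotated transcript lengths these levels correspond to at most 193 fragments of *Tet1* and 159 of *Tet2* in a library, against 5259 or more of *Tet3*.

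**Figure D2:**
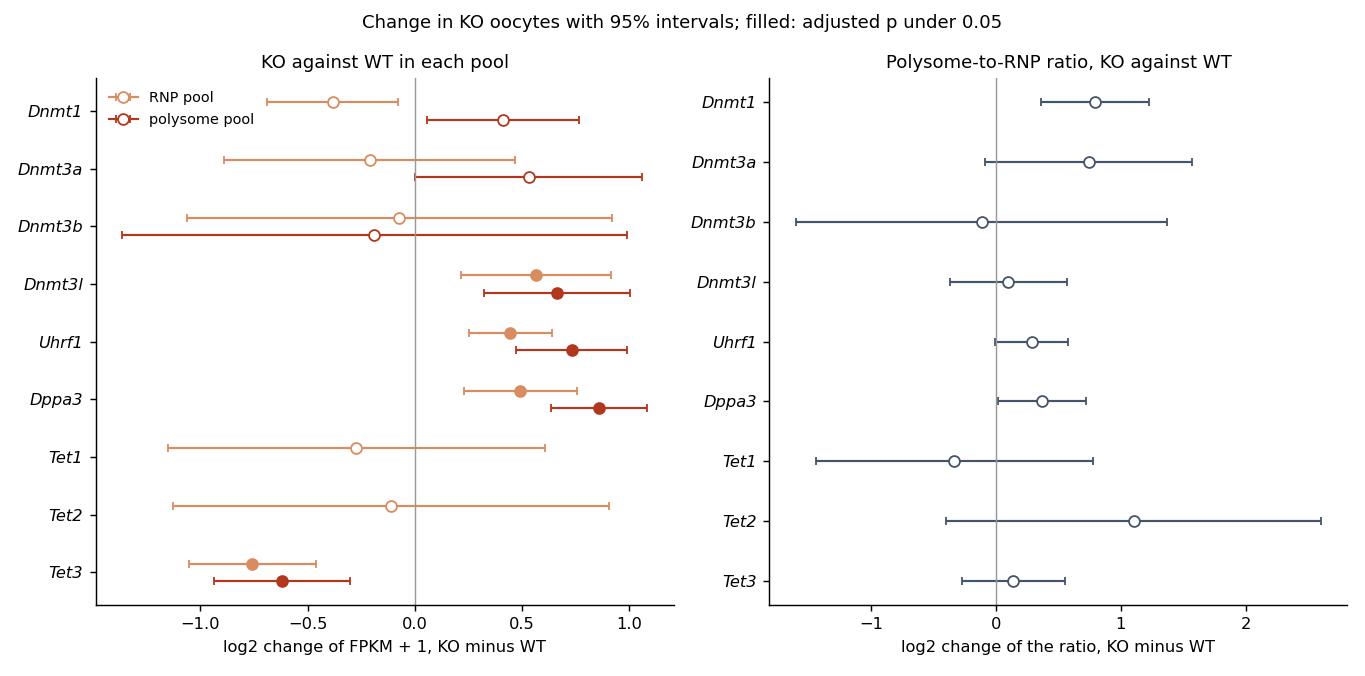
Left, log2 change of FPKM + 1 of KO against WT in the RNP and polysome pools; right, the log2 change of the polysome-to-RNP ratio. Points are limma estimates with 95% intervals not adjusted for the number of genes, filled where the adjusted p was below 0.05; *Dnmt3l*, *Uhrf1*, *Dppa3* and *Tet3* are filled at left in both pools and no gene is filled at right.

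The pools themselves were compared within each genotype. In WT oocytes *Dppa3*, *Tet3*, *Uhrf1* and *Dnmt1* stood higher in polysomes than in RNP, which makes 4 of 8 tested genes called against 14.7% of 9574 genes. In KO oocytes the same 4 and *Dnmt3a* were called higher in polysomes, 5 of 8, against 29.2% of 9851 genes. The libraries of the pools did not overlap for 4 of 8 tested genes in WT, against 34.6% of all genes, and for 5 of 8 in KO, against 44.2%. No member was called higher in RNP in either genotype. The WT differences were 2.36-fold for *Dppa3* (log2 1.25, SE 0.14, adjusted p = 0.000677), 2.09-fold for *Tet3* (log2 1.06, SE 0.15, adjusted p = 0.00265) and 1.95-fold for *Uhrf1* (log2 0.96, SE 0.12, adjusted p = 0.00153), all from limma. Of the 12 oocyte markers 10 were called higher in WT polysomes, with a median log2 difference of 1.91 over the 12, while *Oosp1* was called higher in RNP (log2 -1.43, adjusted p = 0.000234, limma).

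*Dnmt1* was 1.64-fold higher in polysomes than in RNP in WT (log2 0.70, SE 0.16, adjusted p = 0.0201, limma) and 2.87-fold higher in KO (log2 1.50, SE 0.14, adjusted p = 6.99e-05, limma). The WT call was lost without WT RNP replicate 2, WT RNP replicate 3 or WT polysome replicate 3 (adjusted p up to 0.0744), and without the intensity trend (adjusted p = 0.101). *Dnmt3a* was 1.27-fold higher in WT, where the pools overlapped (log2 0.38, adjusted p = 0.479, limma), and 2.23-fold higher in KO, where they did not (log2 1.12, adjusted p = 0.00539, limma). *Dnmt3l* was nearly even between the pools, 1.15-fold in WT and 1.23-fold in KO, and was not called in either (adjusted p = 0.462 and 0.160, limma). Every *Dnmt3b* polysome library was below the RNP mean of its genotype, with log2 differences of -0.78 in WT and -0.90 in KO that were not called (adjusted p = 0.373 and 0.176, limma).

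**Figure D3:**
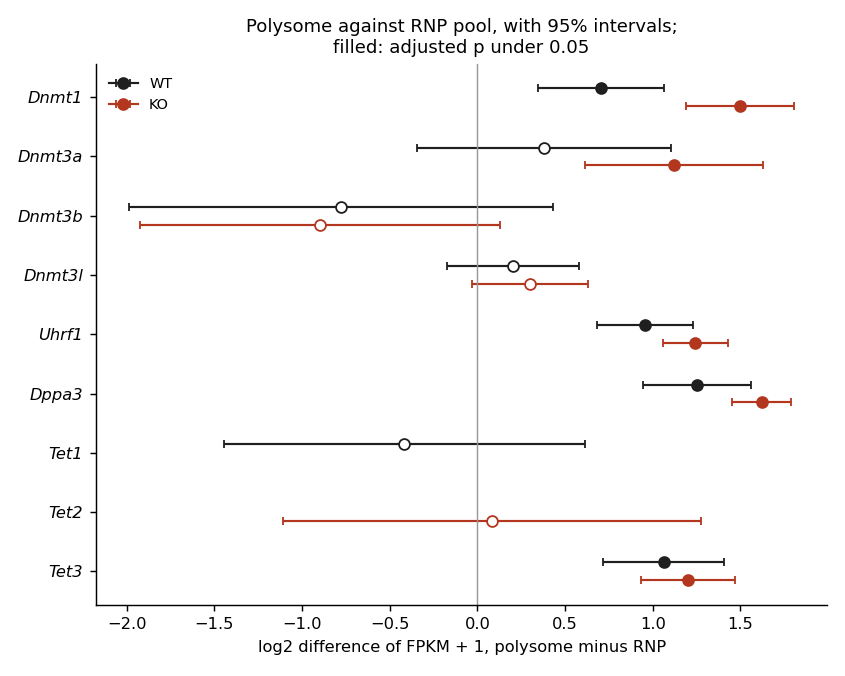
Log2 difference of FPKM + 1 between the polysome and RNP pools in WT and in KO oocytes, with limma's 95% intervals, filled where the adjusted p was below 0.05. *Dnmt1*, *Uhrf1*, *Dppa3* and *Tet3* are filled in both genotypes and *Dnmt3a* in KO; *Tet1* in KO and *Tet2* in WT were not tested.

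Whether the difference between KO and WT was itself different in the 2 pools was tested as the change of the polysome-to-RNP ratio over all 12 libraries. This ratio compares the standing of a transcript among the RNAs of each pool. It cannot show whether molecules moved between the pools. None of the 9 genes was called, against 0.237% of 10949 genes, or 26 genes, while 1220 genes had an unadjusted p under 0.05. The unadjusted p of limma was below the threshold for 2 of the 9, 0.00156 for *Dnmt1* (log2 0.79, SE 0.20, adjusted p = 0.140, limma) and 0.0410 for *Dppa3* (log2 0.37, SE 0.16, adjusted p = 0.427, limma), whose estimate fell to 0.14 under quantile normalization. *Dnmt1* ranked 122 by p among all genes, and its ratio change stayed between 0.68 and 0.87 on the log2 scale over 20 alternatives, with adjusted p of 0.111 to 0.353. For *Dnmt3a* the estimate was of similar size with a wider interval (log2 0.74, 95% interval -0.09 to 1.57). For *Tet3* it was 0.14 (95% interval -0.27 to 0.55), for *Dnmt3l* 0.10 (95% interval -0.37 to 0.57) and for *Uhrf1* 0.29 (95% interval -0.01 to 0.58). Ratio changes within these intervals were not excluded for any of the 3.

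Ratios of 2 genes within 1 library do not depend on how that library was scaled. *Tet3* stood at 0.672 ± 0.0918 of *Uhrf1* in WT RNP and 0.719 ± 0.0133 in WT polysomes, and at 0.288 ± 0.0155 in KO RNP and 0.282 ± 0.0278 in KO polysomes (SD, n = 3 each). WT and KO libraries did not overlap in either pool, and the WT mean was 2.33 times the KO mean in RNP and 2.55 times in polysomes. The exact two-sided permutation test gave p = 0.1 in each pool, the smallest that 3 against 3 libraries allow. Every KO library was above every WT library for *Uhrf1* and below every WT library for *Tet3*. The separation of their ratio was therefore fixed in advance and is no further evidence. Against *Dnmt1*, which was not called, *Tet3* overlapped between WT and KO in RNP (1.87 ± 0.393 and 1.42 ± 0.140, exact two-sided permutation p = 0.3) but not in polysomes (2.37 ± 0.371 and 1.17 ± 0.261, exact permutation p = 0.1). In polysomes *Dnmt1* was also higher in every KO library, so that separation was fixed as well. Within a genotype the *Tet3* to *Uhrf1* ratios of the pools overlapped. The WT polysome libraries, at 0.711 to 0.735, lay within the WT RNP range of 0.568 to 0.741. The KO RNP libraries, at 0.278 to 0.306, lay within the KO polysome range of 0.253 to 0.309. *Dppa3* stood at 5.04 to 6.69 times *Uhrf1* in the 4 group means, and WT and KO overlapped in both pools. *Dnmt3l* rose relative to *Dnmt1* from 1.17 ± 0.151 in WT RNP to 2.29 ± 0.385 in KO RNP without overlap, while in polysomes the ratio was 0.824 ± 0.0991 in WT and 0.983 ± 0.122 in KO with overlap. The RNP separation was likewise fixed, since *Dnmt3l* was higher and *Dnmt1* lower in every KO RNP library.

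**Figure D4:**
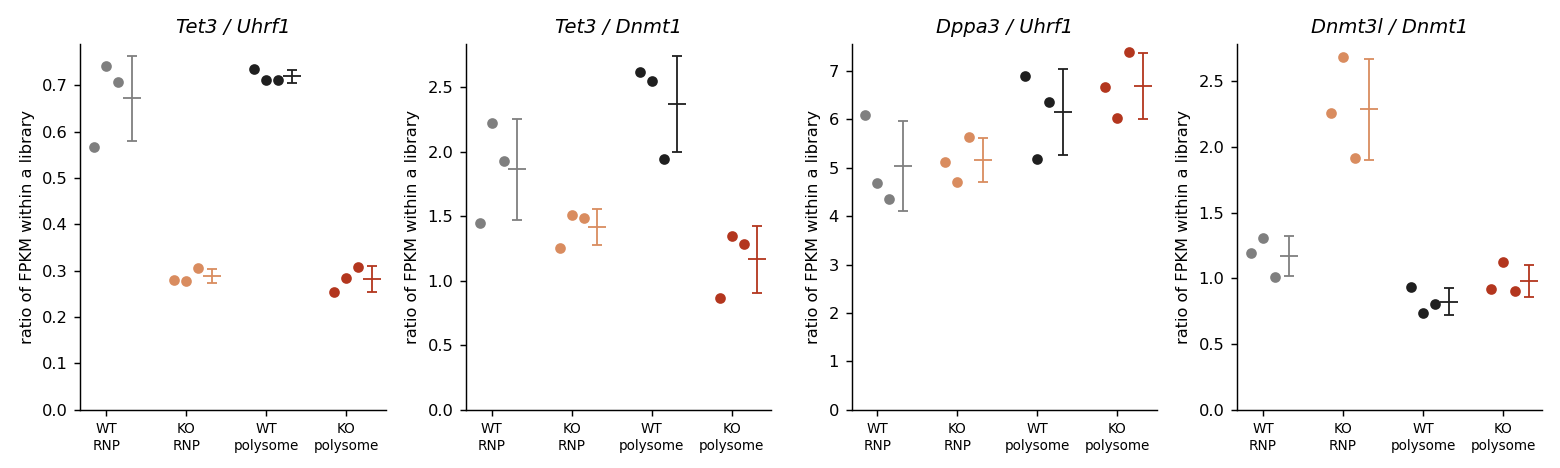
Ratio of the FPKM of 2 genes within each library, on linear axes from 0, 1 point per library with the mean and SD of 3. *Tet3* over *Uhrf1* separates the genotypes in both pools, at 0.568 to 0.741 in WT and 0.253 to 0.309 in KO, whereas *Dppa3* over *Uhrf1* overlaps. The separation follows from the opposite changes of *Tet3* and *Uhrf1*.

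Genes that act with the 9 were taken from 7 lists of 88 symbols, 84 of them in the table. In polysomes 2 of 66 tested genes, or 3.03%, were called and both rose, a share below the 10.4% over all genes tested. In RNP 7 rose and 7 fell of 67, a share of 20.9% that was close to the 20.7% over all genes. None of 71 was called for the polysome-to-RNP ratio. The calls below therefore describe single genes and set none of the lists apart. The medians over these lists were 0.26, 0.05 and 0.22 on the log2 scale, beside 0.10, 0.05 and 0.04 over all genes tested.

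Both polysome calls were in the list of 21 symbols for histone marks that place or block DNA methylation, of which 18 were tested. *Kdm1b*, the H3K4 demethylase needed for maternal imprints, reached 80.2, 87.3 and 64.8 FPKM in the WT polysome libraries and 203, 312 and 306 FPKM in the KO polysome libraries. It rose by 1.79 on the log2 scale in polysomes (SE 0.20, adjusted p = 0.00271, limma) and by 1.74 in RNP (SE 0.34, adjusted p = 0.00738, limma). *Setd2*, which writes the H3K36me3 that guides DNMT3A in oocytes, reached 11.2, 14.7 and 11.0 FPKM in the WT polysome libraries and 41.5, 46.4 and 51.6 FPKM in the KO polysome libraries. It rose by 1.84 in polysomes (SE 0.24, adjusted p = 0.00396, limma) and by 1.34 in RNP (SE 0.26, adjusted p = 0.00719, limma). These 4 calls held without any 1 library. *Kdm1b* shares 505 exonic bases with *Dek* on the opposite strand, which was lower in KO than in WT, at 8.05 FPKM in the WT polysome mean and 2.47 FPKM in KO.

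In the RNP pool 4 further genes of this list fell, *Suv39h1*, an H3K9 methyltransferase, by 0.76 on the log2 scale (SE 0.15, adjusted p = 0.00667, limma), and *Suv39h2*, *Eed* and *Suz12*, the last 3 falling outside the naming rule and named after their values were seen. *Eed* was lost without KO RNP replicate 1 (adjusted p = 0.0649) and *Suz12* without WT RNP replicate 1 or KO RNP replicate 1 or 2 (adjusted p up to 0.0766) or the intensity trend (adjusted p = 0.0531). *Suv39h1* was at 49.2, 49.7 and 46.8 FPKM in WT RNP and at 29.4, 28.4 and 26.7 FPKM in KO RNP. In the list of other writers and cofactors *Trdmt1*, the RNA methyltransferase once named DNMT2, fell in RNP from 5.25, 8.96 and 7.79 FPKM to 0.374, 0.720 and 1.18 FPKM (log2 -2.24, SE 0.37, adjusted p = 0.00318, limma). In that list *Cdca7*, the HELLS partner, fell by 1.58 (adjusted p = 0.0264) and *Pcna*, the replication clamp, rose by 0.70 (adjusted p = 0.0179) in RNP by limma. Both depended on single libraries: *Cdca7* was lost without WT RNP replicate 2 or 3 or KO RNP replicate 1 or 2 (adjusted p up to 0.0931), and *Pcna* without KO RNP replicate 1 or 3 (adjusted p up to 0.0866). With no filter *Cdca7* was lost as well (adjusted p = 0.0811).

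Of 6 tested imprint maintenance genes 2 rose in RNP. *Zfp57*, the zinc finger protein that guards imprints, was at 2920, 3014 and 2990 FPKM in WT RNP and at 3856, 3965 and 3763 FPKM in KO RNP (log2 0.38, SE 0.05, adjusted p = 0.000719, limma). This call was lost without the intensity trend (adjusted p = 0.146). Unlike the members called between pools, *Zfp57* stood lower in polysomes than in RNP, at 1194 ± 112 FPKM in WT and 1391 ± 13.7 FPKM in KO polysomes (SD, n = 3), with log2 differences of -1.32 and -1.47 (adjusted p = 4.63e-05 and 5.47e-07, limma). *Zfp445*, its partner in imprint protection, rose by 1.57 in RNP (adjusted p = 0.0161, limma) but not without KO RNP replicate 1 or 3 (adjusted p up to 0.0695) or with no filter (adjusted p = 0.0510). Of 9 tested base excision genes *Ung*, the uracil glycosylase, rose by 0.77 in RNP (SE 0.11, adjusted p = 0.00160, limma), and of 16 tested genes of the methionine and folate cycle *Mat2b*, the regulatory subunit of S-adenosylmethionine synthase, rose by 0.62 (SE 0.07, adjusted p = 0.000677, limma). Of 7 tested methyl-CpG readers *Mbd3*, a NuRD subunit, fell by 0.91 in RNP (adjusted p = 0.0470, limma), a call kept only without WT RNP replicate 1 among the 6 left-out libraries (adjusted p up to 0.124) and lost under 4 other settings. None of the 5 tested genes of the CRL4 ubiquitin ligase, the complex that monoubiquitylates TET proteins, was called in any comparison of KO with WT.

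**Figure D5:**
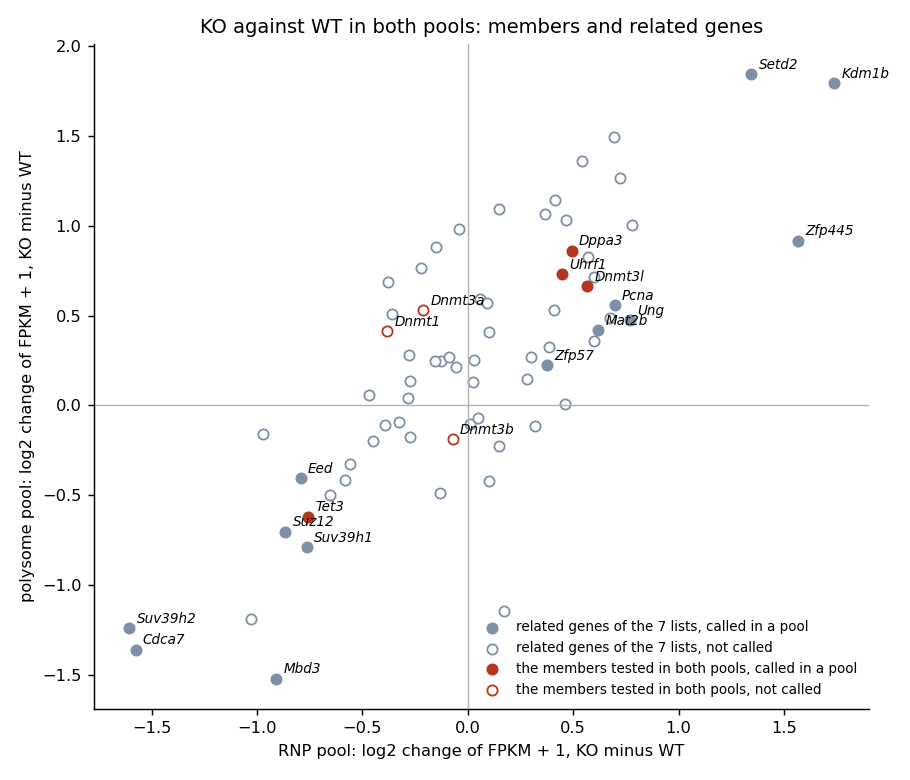
Log2 change of FPKM + 1 of KO against WT in the RNP pool (horizontal) and the polysome pool (vertical) for the members and related genes tested in both pools, filled where called in at least 1 pool. *Kdm1b* and *Setd2* lie at the upper right above the members, *Dppa3*, *Uhrf1* and *Dnmt3l* lie together, *Tet3* lies at lower left, and *Dnmt1* and *Dnmt3a* lie at upper left.

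The genes most like each member were found by Pearson's r of log2(FPKM + 1) over the 12 libraries among 10949 genes. The 12 points share 4 groups, so r mostly follows genotype and pool and is given as a description. *Uhrf1* and *Dppa3* were close to one another (r = 0.977), and their nearest genes were *Cgn*, *Plaa* and *Lhx8* for *Uhrf1* (r = 0.989, 0.989 and 0.987) and *Skp1a*, *Gps1* and *Fbxw14* for *Dppa3* (r = 0.989, 0.988 and 0.986). *Lhx8*, an oocyte transcription factor, had means of 104 FPKM in WT RNP, 151 FPKM in KO RNP, 247 FPKM in WT polysomes and 390 FPKM in KO polysomes. *Dnmt3l* was nearest to *Tubb5*, *Fbxw26* and *Cenpq* (r = 0.938, 0.935 and 0.932).

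*Dnmt1* was nearest to *Mcm2*, *Tacc2* and *Zp1* (r = 0.982, 0.971 and 0.971). The replication helicase gene *Mcm2* had the same order of means as *Dnmt1*, at 30.1 FPKM in WT RNP, 23.1 FPKM in KO RNP, 40.9 FPKM in WT polysomes and 52.4 FPKM in KO polysomes. *Tet3* was nearest to *Usp11*, *Exosc7* and *Dmxl1* (r = 0.970, 0.957 and 0.956), all at under 14 FPKM in each group mean, and its r with *Dnmt3l* was -0.179. *Dnmt3a* was nearest to *Fbxo7*, *Ahctf1* and *Aco1* (r = 0.910, 0.906 and 0.904). For the 3 low genes the nearest were *Lpcat2*, *Samd7* and *Fam120c* for *Dnmt3b* (r = 0.880, 0.879 and 0.866), *Oas1f*, *2700062C07Rik* and *Tm9sf2* for *Tet1* (r = 0.935, 0.911 and 0.905) and *Ift74*, *Gm15421* and *Glod4* for *Tet2* (r = 0.899, 0.892 and 0.884), where values near the detection limit carry much of r.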

How the data were processed

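The authors aligned paired reads to mm10 with TopHat2 2.0.13 and estimated gene FPKM with Cufflinks 2.2.1 and Cuffnorm, and the deposited table holds these FPKM values for 24259 genes in 12 libraries. Its 54 columns of the authors' fold changes and p-values were not used. Groups came from the sample titles, with 3 libraries each. For each comparison log2(FPKM + 1) was fitted with limma 3.58.1 in R 4.3.3 (eBayes with an intensity trend) over genes at 1 FPKM or more in at least 3 libraries of the fit, and p-values were adjusted over all genes tested by Benjamini-Hochberg, with a threshold of 0.05. The ratio comparison was the genotype-by-pool interaction fitted to the 12 libraries together. The scripts were tested on simulated data. No fragment counts were used, so FPKM steps gave depth only roughly: 51.0% to 69.4% of low values lay within 0.1 of a whole fragment, against 20% if spread evenly. The size of 1 fragment was taken from the peak of these same low values. A share above 20% was therefore favoured in advance and is no check of the depths. The members and lists were chosen with earlier results of these data known. Named were the 9 members, *Lsm14b*, up to 3 list genes of smallest p per list and comparison, and 3 genes of highest r per member; *Mir300*, *Dek*, *Oosp1* and the overlapping or marker genes were named after their values were seen. Alternatives were pseudocounts of 0.1 and 5, no filter or one at 5 FPKM, median rescaling, quantile normalization, no trend, a replicate block and leaving out each library. Python 3.11.15, pandas 2.3.3, numpy 2.4.6 and matplotlib 3.10.9 were used for the rest. RefSeq promoters matched 8 of 9 members; *Dppa3* is named only.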

Additional observations from a re-analysis of the deposited data

Results flagged for a closer look

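*Dnmt1* stood out because the 3 KO libraries were all above the WT libraries in polysomes and all below them in the RNP pool, so the KO effect had opposite signs in the pools. The change of the polysome-to-RNP ratio had a log2 value of 0.79 (SE 0.20, unadjusted p = 0.00156, limma). It did not pass the threshold after adjustment over all genes (adjusted p = 0.140, limma). That test reads the same values as the flag and is no separate support for it. Groups of 3 libraries were not tested for outlying libraries.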

How the results depend on the processing

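Of 605 recomputed log2 changes of the members, 575 kept their side of the threshold, 30 lost the call and 0 called changes reversed; uncalled changes of *Dnmt3a*, *Dnmt3b*, *Dnmt3l* and *Tet2* crossed 0 in some. The number of members called in polysomes, 4 with the chosen settings, was 0 without the intensity trend (4 had an unadjusted p under 0.05), 2 with a replicate block and 2 to 4 with 1 library left out; in RNP it was 2 with no filter and 1 without the trend. Over all genes the polysome calls were 545 with no filter, 508 without the trend and 383 to 790 with 1 library left out; RNP calls were 1255 to 1911; ratio calls were 6 without the trend, 0 with a replicate block (1129 genes with an unadjusted p under 0.05) and 0 to 46 with 1 library left out, 0 being without KO RNP replicate 2 (999 genes with an unadjusted p under 0.05); polysome against RNP calls in WT were 728 without the trend and 780 to 1212. Same-numbered libraries showed little common deviation from their groups (mean r of -0.005 to 0.015 over 10949 genes). With 3 libraries per group this cannot show whether they shared a lysate or mice. Under a replicate block *Dnmt3l* and *Tet3* in polysomes were not called (adjusted p = 0.0648 and 0.0580, limma). The cause of these losses was not tested. By the rough estimate of depth, *Dnmt3b*, *Tet1* and *Tet2* had at most 144, 193 and 159 fragments in a library. Where they were tested, their intervals spanned changes in either direction. The part of depth in the width of these intervals was not tested.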
